A study of Mus musculus with 2 samples.

Results

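Among the CD45+ leukocytes of bleomycin (BLM)-injured and naïve mouse lungs, 193 of 8451 quality-filtered cells were CD8 T cells that carried transcripts of the chemokine Ccl5 or of the granule membrane protein Nkg7. They were chosen by their counts of unique molecular identifiers (UMIs, 1 per captured transcript). A chosen cell had 2 or more UMIs of Cd3e, Cd3d and Cd3g, 1 or more of Cd8a and Cd8b1 and 2 or more of Ccl5 and Nkg7. It had no UMI of Cd4, Foxp3, Cd79a or Ms4a1, and fewer than 4 of the proliferation genes Mki67, Top2a, Birc5 and Ube2c. These cells stood in for effector and memory CD8 T cells and are called Ccl5/Nkg7 CD8 T cells below, for reasons given with their markers. CD8 T cells that met the same rule but had fewer than 2 UMIs of Ccl5 and Nkg7 are called the other CD8 T cells.

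Living CD45+ cells were sorted from C57BL/6N lungs and sequenced as 2 single-cell libraries on the BD Rhapsody microwell system. In the BLM group the lungs were taken 15 days after bleomycin, a DNA-cutting drug given into the trachea that injures the lung and is followed by fibrosis, and in the naïve group the mice had no treatment. Each library was a pool of 3 wild-type mice, with no map from cell to mouse. A group was thus a single library without replicates, and no test between groups could be run. Every interval below is a 95% interval for counting error alone, and group, pool, library preparation and sequencing run cannot be told apart. The UMIs of 1 cell are not independent, which makes these intervals too narrow for genes held by a few cells. Levels are given as counts per 1000000 UMIs of the same cells (CPM).

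CD8 T cells recognise peptides on class I major histocompatibility molecules. After a first encounter they become effector cells, which kill through perforin and granzymes and release interferon gamma, and later memory cells, which persist and respond faster. Memory cells keep a store of Ccl5 transcript. Those that circulate use Ccr7 to enter lymph nodes and S1pr1 to leave them, whereas resident memory cells of the lung carry CD69, the integrin Itgae (CD103) or Itga1 and the receptor Cxcr6. Memory-type surface changes also arise in CD8 T cells that have met no foreign antigen.

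The BLM library held 130 Ccl5/Nkg7 CD8 T cells and the naïve library 63. They made up 2.87% of the filtered BLM cells (130 of 4526, exact Clopper-Pearson interval 2.41 to 3.40%) and 1.61% of the naïve ones (63 of 3925, 1.24 to 2.05%). Of all CD3-positive cells they were 17.6% in BLM (14.9 to 20.5%) and 9.95% in naïve (7.73 to 12.6%). Of the non-proliferating CD8 T cells they were 59.9% in BLM (130 of 217, 53.1 to 66.5%) and 34.2% in naïve (63 of 184, 27.4 to 41.6%). The 3 pairs of intervals did not overlap. All 3 shares rest on the levels of the genes that chose the cells, and at a limit of 1 Ccl5 or Nkg7 UMI the shares of filtered cells were 3.56% (3.04 to 4.14%) in BLM and 2.80% (2.31 to 3.37%) in naïve, with overlapping intervals. Depth was alike in both groups, with a median of 3346.5 UMIs and 1424 genes per cell in BLM and 3261 UMIs and 1492 genes in naïve. The summed counts behind the levels were 450508 and 209255 UMIs.

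The levels of the genes of the rule are a description, since they chose the cells. Ccl5, on chromosome 11 (83525778 to 83530518 of GRCm38, minus strand), had 1076 UMIs in BLM, from 0 to 56 per cell with a median of 5. In naïve it had 687 UMIs, from 0 to 85 per cell with a median of 1. Nkg7, on chromosome 7 (43437073 to 43438249, plus strand), had 285 and 153 UMIs, with a median of 2 in either group. Both transcripts were present in 92 BLM and 30 naïve cells. Nkg7 alone had brought in 18 BLM cells (13.8%, 8.42 to 21.0%) and 28 naïve cells (44.4%, 31.9 to 57.5%). Just inside the limit, with exactly 2 UMIs of the pair, were 21 BLM and 25 naïve cells, and just outside it, with 1 UMI, were 31 and 47.

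**Figure D1:**
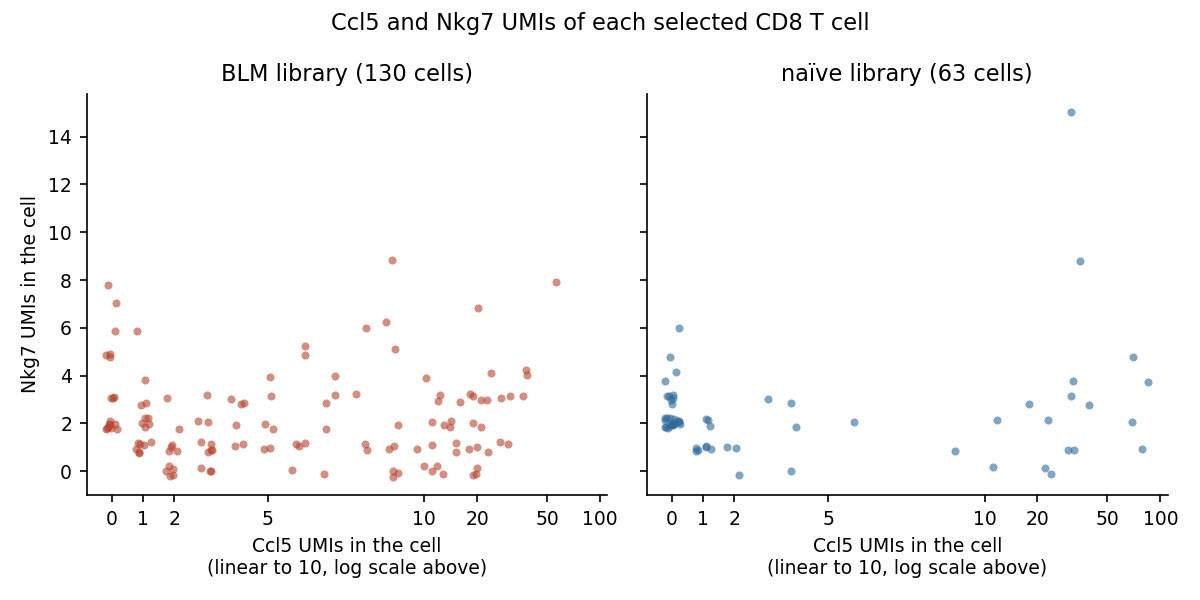
Ccl5 UMIs (x axis, linear to 10 and on a log scale above) and Nkg7 UMIs (y axis) of each Ccl5/Nkg7 CD8 T cell, 130 in BLM (left) and 63 in naïve (right), with a small random shift of each point so that equal values can be seen. Of the 130 BLM cells 18 sit at 0 Ccl5 UMIs and 38 at 10 or more, and of the 63 naïve cells 28 and 17.

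Free RNA in the suspension can give such counts to any cell. Of the B cells, which should lack both genes, 4 of 619 in BLM (0.646%) and 19 of 857 in naïve (2.22%) would have met the Ccl5 and Nkg7 part of the rule, at median depths of 1748 and 2030 UMIs. A Ccl5 UMI was present in 4.20% of BLM and 11.1% of naïve B cells. The part of such RNA in the naïve cells just inside the limit was not tested. Of the 22 cell labels that both libraries used, 2 belonged to the BLM and 1 to the naïve Ccl5/Nkg7 CD8 T cells.

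Markers that the rule did not use showed alpha beta T cells. Trac, the constant region of the T cell receptor alpha chain, had 579 CPM in BLM (261 UMIs in 99 cells) and 626 CPM in naïve (131 UMIs in 48 cells). Trbc2, a beta chain constant region, had 1196 and 1329 CPM. The 6 gamma delta markers summed to 102 and 57.3 CPM, and 2 BLM cells with 9 and 6 UMIs of Trdc held all 15 BLM UMIs of that gene. Memory-associated surface genes differed in level. Il2rb, the receptor chain through which memory cells sense interleukin-15, reached 917 and 946 CPM. Ly6c2, a surface protein raised on memory CD8 T cells, reached 1920 CPM in BLM and 1032 CPM in naïve. Il2rb was not particular to these cells, at 520 CPM in BLM and 505 CPM in naïve CD8 T cells without a Ccl5 or Nkg7 UMI. Cd44 was lower, at 235 CPM in BLM and 133 CPM in naïve cells with 3 to 9 UMIs of the pair. With 10 or more it had 231 and 260 CPM. Cxcr3 had few UMIs.

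Several transcripts of armed effector cells were few. Gzma, encoding granzyme A, had 12 UMIs in 8 BLM cells (26.6 CPM) and 78 UMIs in 10 naïve cells (373 CPM), against 10407 and 10975 CPM in the NK cells of the same libraries. In the BLM library this was no more than the 29.0 CPM of the B cells, while the naïve B cells had 74.0 CPM. Gzmk had 2 and 4 UMIs, Ifng 5 and 1, Klrg1 2 and 6, Cx3cr1 2 and 4, and Zfp683, a factor of resident memory cells, none. Not all genes of granules and killing were scarce. In cells with 10 or more Ccl5 and Nkg7 UMIs, Ctsw was seen in 56.9% of BLM and 44.4% of naïve cells. Serpinb9 was seen in 51.0% and 44.4% of them. The perforin gene Prf1 had 28 UMIs in 25 BLM cells and 34 in 13 naïve cells. At the same time the homing genes shared by naïve and central memory cells were well detected. Ccr7 had 548 and 655 CPM, S1pr1 388 and 550 CPM, and the transcription factor Tcf7, which maintains naïve and memory cells, 324 and 444 CPM. The 7 markers of naïve CD8 T cells summed to 2395 and 3231 CPM here and to 3818 and 3789 CPM in the other CD8 T cells. The 19 listed effector and memory markers not used by the rule summed to 6835 and 6432 CPM, against 4627 and 4361 CPM in the other CD8 T cells. They include the general T cell genes Trac, Trbc1, Trbc2, Cd247, Cd2 and Thy1, as well as Ly6c2 and Gzma. Their sum therefore does not tell memory from effector cells. Among the single genes named, Il2rb and Ly6c2 were better represented than Gzma, Gzmk, Ifng, Klrg1 and Cx3cr1. Part of the cells also carried homing genes that naïve CD8 T cells share, so the cells are named by the genes that chose them.

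**Figure D2:**
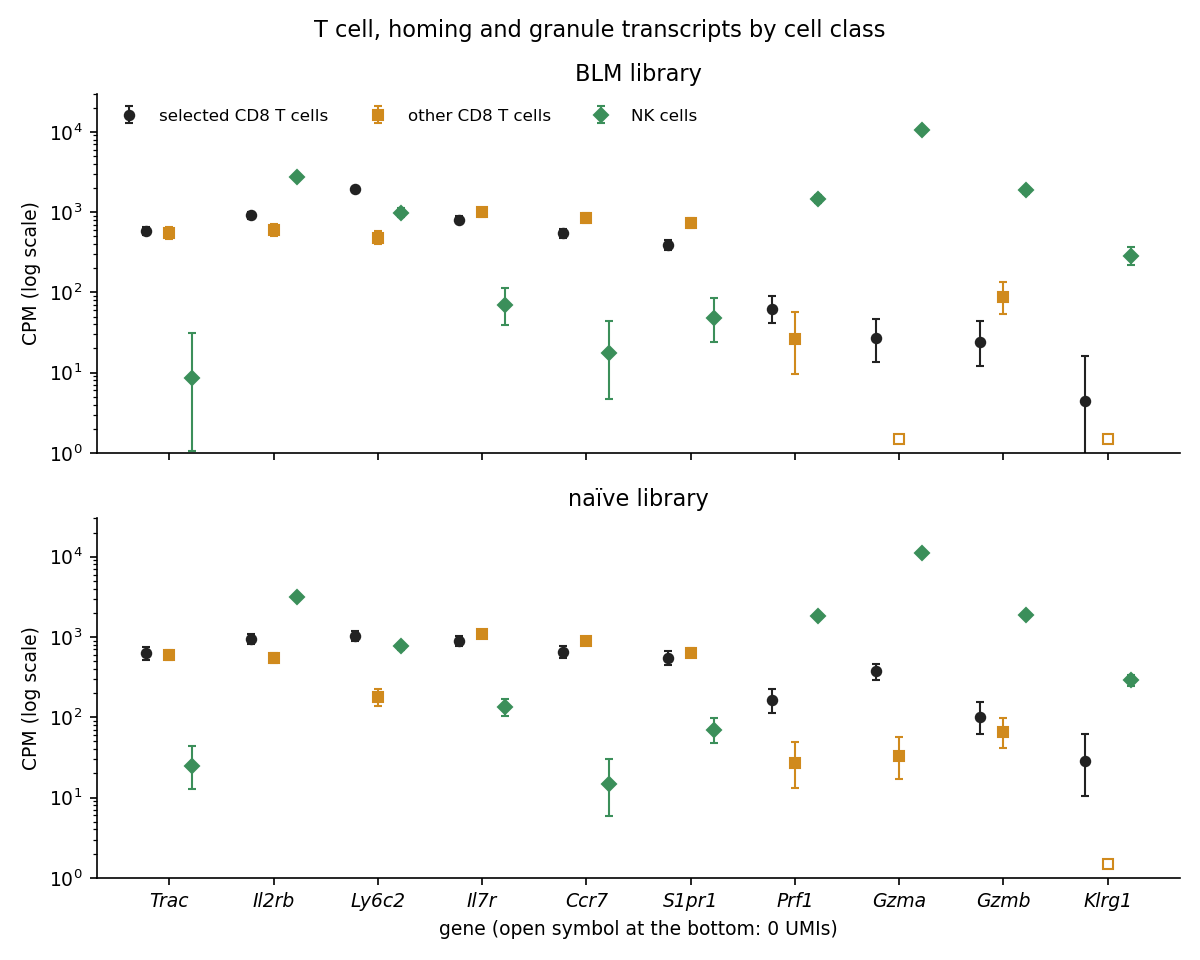
CPM on a log scale of 10 genes in the Ccl5/Nkg7 CD8 T cells (selected CD8 T cells, black circles), the other CD8 T cells (orange squares) and NK cells (green diamonds) of the BLM (top) and naïve (bottom) library. Bars are exact Poisson 95% intervals, that of Klrg1 in BLM running below the axis, and open symbols at the bottom stand for 0 UMIs. Of the 3 classes Ly6c2 was highest in the Ccl5/Nkg7 cells of both libraries, whereas Gzma, Gzmb, Prf1 and Klrg1 stood far below their level in NK cells.

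The same picture held cell by cell. A UMI of the residency genes Itgae, Itga1 or Cxcr6 was found in 17 BLM cells (13.1%, 7.81 to 20.1%) and 10 naïve cells (15.9%, 7.88 to 27.3%), and in 0.969% and 3.50% of B cells. The other CD8 T cells had such a UMI more often, in 20 of 87 BLM cells (14.6 to 33.2%) and 40 of 121 naïve cells (24.8 to 42.2%). The terminal effector genes Klrg1, Cx3cr1, S1pr5, Gzma and Gzmb marked 14 cells in each group, which was 10.8% (6.01 to 17.4%) in BLM and 22.2% (12.7 to 34.5%) in naïve, beside 4.52% and 13.7% of B cells and 5.75% and 16.5% of the other CD8 T cells. The other CD8 T cells were shallower, at medians of 2591 and 2764 UMIs. Thinned to 1000 UMIs per cell, which left out no member, the residency and terminal effector shares were 5.67% and 4.69% in BLM and 7.12% and 13.4% in naïve. In the other CD8 T cells the thinned shares were 10.4% and 2.79% in BLM and 14.3% and 6.27% in naïve. In B cells they were 0.516% and 1.98% in BLM and 1.13% and 5.15% in naïve. Ly6c2 and Ccr7 UMIs occurred together in 70 BLM cells (53.8%, 44.9 to 62.6%) and 30 naïve cells (47.6%, 34.9 to 60.6%). Within the Ccl5-positive cells, Ccr7 was seen in 58.9% of the BLM and 65.7% of the naïve cells.

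How other genes followed the chosen pair was described by sorting all CD8 T cells into bins of 0, 1, 2, 3 to 9 and 10 or more Ccl5 and Nkg7 UMIs. Ly6c2 was higher from bin to bin in BLM, from 238 CPM in the 56 cells at 0 through 853 and 1536 CPM to 1969 and 2013 CPM. In naïve it stayed at 173 and 186 CPM up to 1 UMI, was 426 CPM in the 25 cells at 2 and reached 1282 and 1544 CPM above. Just inside the limit the groups thus differed in summed Ly6c2, while the top bins were closer. Of the 106 BLM UMIs at 2 Ccl5 and Nkg7 UMIs, single cells held 25, 21 and 16. Cells with a Ly6c2 UMI were 61.9% of BLM and 52% of naïve in that bin. Igfbp4, a gene of naïve T cells, was lower in the top bin than at 0, at 164 against 491 CPM in BLM and 32.5 against 341 CPM in naïve.

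The 18 naïve cells with 10 or more UMIs stood apart. Of the UMIs in the naïve cells inside the rule, they held 74 of 78 of Gzma, all 31 of Klrc1, which encodes the inhibitory receptor NKG2A, and all 18 of Ncr1 and Klrb1c, genes of NK cells. Only 6 of the 18 cells had a Gzma UMI, whereas 10 had one of Klrc1. In 2 cells lay 58 of the Gzma, 12 of the Klrb1c and 5 of the Ncr1 UMIs. Over all 18 cells the level of Itgb1 was 991 CPM and that of Ccr7, from 10 UMIs, 163 CPM, against 928 CPM of Ccr7 in the naïve 3 to 9 bin. The 51 BLM cells of the top bin had 39.5 CPM of Gzma, 536 CPM of Itgb1 and 507 CPM of Ccr7. The naïve top bin also held 188 Lyz2 UMIs, of which 149 came from 1 cell.

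**Figure D3:**
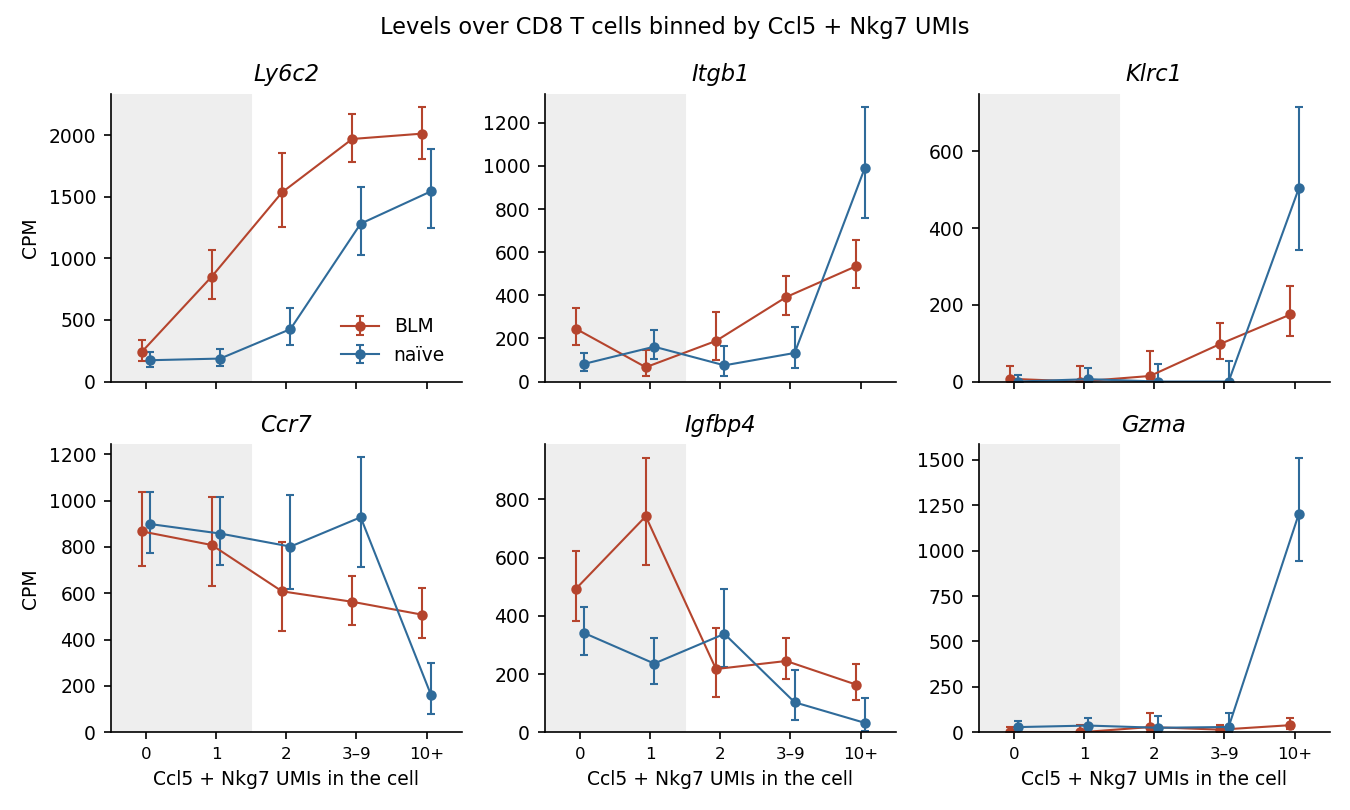
CPM of 6 genes (y axes, linear) over all CD8 T cells sorted by their Ccl5 and Nkg7 UMIs (x axis), in BLM (red) and naïve (blue), with exact Poisson 95% intervals. The grey area marks cells outside the rule. Ly6c2 climbed from 238 to 2013 CPM in BLM and from 173 to 1544 CPM in naïve. Gzma stood above 50 CPM only in the naïve bin of 10 or more UMIs, where 2 cells held 58 of its 74 UMIs.

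Against the other CD8 T cells of the same library, 4536 genes had 20 or more UMIs in BLM and 4432 in naïve. A gene was called where the ratio of CPM was 2-fold or more and its exact conditional interval left out 0 on the log2 scale. In BLM 129 genes were called higher (2.84%) and 143 lower (3.15%), and in naïve 94 were called higher (2.12%) and 110 lower (2.48%). The rule split these cells by Ccl5 and Nkg7, so genes that go with the pair differ by construction and the values are a description.

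Beside Ccl5 itself, the 10 highest genes of both libraries held Klrc1, Nkg7, Serpinb6b and Ly6c2. Klrc1 had 52 UMIs here and 1 in the other CD8 T cells of BLM, and 31 against 1 in naïve, with log2 ratios of 4.72 [2.18, 10.05] and 5.77 [3.19, 11.12]. Serpinb6b and Serpinb9, whose protease inhibitors shield granule-bearing cells from their own granzymes, had log2 ratios of 3.39 and 2.72 in BLM and of 3.99 and 1.96 in naïve. Ly6c2 was 3.99-fold higher in BLM (1920 against 481 CPM, log2 interval 1.71 to 2.30) and at a log2 ratio of 2.53 [2.12, 2.95] in naïve (1032 against 179 CPM). Ratios were for Ctla2a, a cysteine protease inhibitor of activated T cells, 1.84 and 2.23, for Hopx, a cofactor of memory T cells, 1.40 and 1.87, and for the integrin Itgb1 1.25 and 1.64. Klra7 (50 against 1 UMI) and the transcription factor Runx2 (55 against 6) were called in BLM, where the naïve values did not pass. Gzma, Prf1 and Eomes were called higher in naïve alone, at log2 ratios of 3.52, 2.58 and 2.93, but the 2 naïve cells with NK transcripts described below held 58 of the 78 Gzma and 14 of the 34 Prf1 UMIs. Of the 26 naïve Eomes UMIs the highest cells held 6, 5, 5 and 3. S100a9, S100a8 and Thbs1 were also among the 10 highest in naïve, each with most UMIs in 1 cell (69 of 88, 48 of 61 and 34 of 48). The difference between the libraries in these ratios was not tested.

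Lower than in the other CD8 T cells was Itgae, at −3.30 [−5.31, −1.72] in BLM (4 against 20 UMIs) and −1.70 [−3.10, −0.52] in naïve (7 against 40 UMIs). CD103 is also found on naïve CD8 T cells. Rgcc, a regulator of the cell cycle, was lower at −2.30 and −1.16 and the tubulin gene Tubb2a at −1.83 and −1.90. In BLM the ranked genes also included Igfbp4 at −1.50, Trib2 at −1.86, Ramp3 at −2.27, Plaur at −1.95 and Ndrg1 at −2.47. Klf2, which drives S1pr1, was at −0.98 [−1.22, −0.73] in BLM and −0.31 [−0.60, −0.03] in naïve. In naïve the 10 lowest genes held H2-Eb1 at −2.24, Cd74 at −1.97 (29 against 201 UMIs) and H2-Ab1, all of class II antigen presentation, the myeloid genes Ccl6 and Cst3, and Tubb2a, Mt2, 0610012G03Rik, Itga6 and Aff1. Ccl6 turned from −1.46 to 1.83 and was called higher at a limit of 1 Ccl5 or Nkg7 UMI. The part of doublets or free RNA in these ratios was not tested.

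BLM and naïve Ccl5/Nkg7 CD8 T cells were then compared over 4563 genes with 20 or more UMIs. By total UMIs, 113 genes were called higher in BLM (2.48%) and 190 lower (4.16%), and the median log2 ratio of all genes tested was −0.07. Scaling by edgeR's TMM factors shifted every log2 ratio by 0.16 and turned this split to 175 higher and 113 lower, with a median of 0.09. The number of genes in each direction therefore depended on the scaling, and changes of that size are read relative to the median. In the other CD8 T cells, 84 genes (1.90%) were called higher and 199 (4.51%) lower in BLM. Of 56 called genes in the lists or ranks or named with them, 12 kept their call under 15 of the 17 alternatives tried. Left aside were a filter of 50 UMIs and removing cells with 2 or more UMIs of other cells, which left 15 and 5 cells. The 12 were Rgs1, Cd69, Socs3, Gpx4 and Ly6a, which were higher in BLM, and Gzma, Itga4, Rgcc, Cited2, Ramp3, Dapl1 and Igkc, which were lower. Of the 15 alternatives, a filter of 10 UMIs and no filter only loosen the limit of 20 and could not end a call. The limit of 500 genes left the same 130 and 63 cells.

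**Figure D4:**
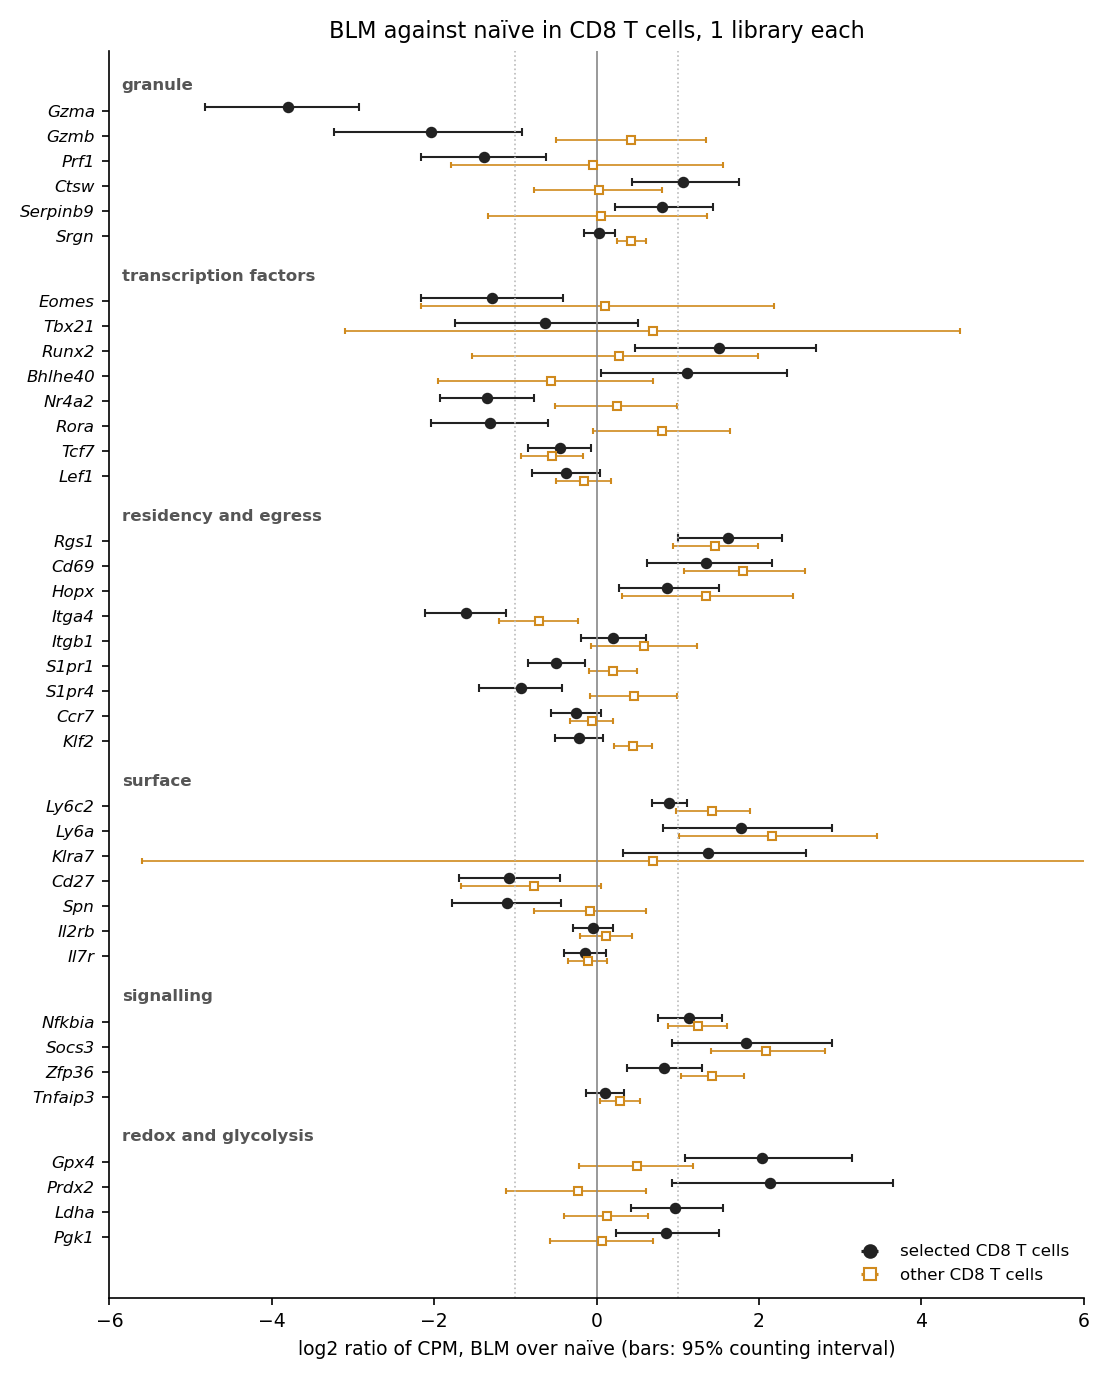
Log2 ratio of CPM, BLM over naïve (x axis), of 38 genes by role, in the Ccl5/Nkg7 CD8 T cells (selected CD8 T cells, black circles) and the other CD8 T cells (orange squares, left out where a library had 0 UMIs). Bars are exact 95% intervals for counting error, that of Klra7 in the other CD8 T cells running past the axis, and dotted lines mark 2-fold. Rgs1, Cd69, Nfkbia and Socs3 lay to the right in both classes, whereas Gzma, Itga4 and Nr4a2 lay to the left in the Ccl5/Nkg7 cells.

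Among the genes of granules and killing, 12 of 16 had enough UMIs. Ctsw was called higher in BLM, Gzma, Gzmb and Prf1 lower, and 8 passed neither way, with a list median of 0.06. Gzma, on chromosome 13 (113093825 to 113100981, minus strand), had a log2 ratio of −3.81 [−4.82, −2.92]. The UMIs were held by few cells. In naïve the 4 highest cells had 45, 13, 7 and 7 UMIs, and in BLM 4, 2, 1 and 1. The first 2 of these naïve cells also carried 10 and 7 UMIs of Ncr1 and Klrb1c, with Tyrobp and Fcer1g, and together held 58 Gzma, 10 Gzmb and 14 Prf1 UMIs.

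Without the 2 cells of each library that had 2 or more UMIs of Ncr1 and Klrb1c, the ratio of Gzma was −1.89 [−3.06, −0.79] and still called. Gzmb moved from −2.04 to −1.16 [−2.50, 0.19] and Prf1, encoding perforin, from −1.39 to −0.72 [−1.61, 0.19], so neither was called any more. Over all 7 NK markers the summed level was 351 CPM in BLM and 741 CPM in naïve, with Klra8 at 0 in naïve, against 10051 and 9938 CPM in NK cells and 905 and 1532 CPM in B cells. Their part in the Gzma ratio of the remaining cells was not tested. Of the remaining naïve cells, the 2 highest had 7 Gzma UMIs each, and 1 of them also had 149 Lyz2 and 17 Fcer1g UMIs. Lower Gzma in BLM was not particular to the Ccl5/Nkg7 cells. A Gzma UMI was present in 0 of 87 BLM and 12 of 121 naïve other CD8 T cells. In B cells the shares were 1.94% and 8.98%, and in NK cells 91.8% and 94.5%. Ctsw, a cathepsin of cytotoxic lymphocytes, had 113 UMIs in 76 BLM cells and 25 in 21 naïve cells, a log2 ratio of 1.07 [0.44, 1.76], which was 0.61 [−0.10, 1.38] in the cells with a Ccl5 UMI. Srgn, the proteoglycan that packs granules, differed little, at 1600 and 1567 CPM.

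**Figure D5:**
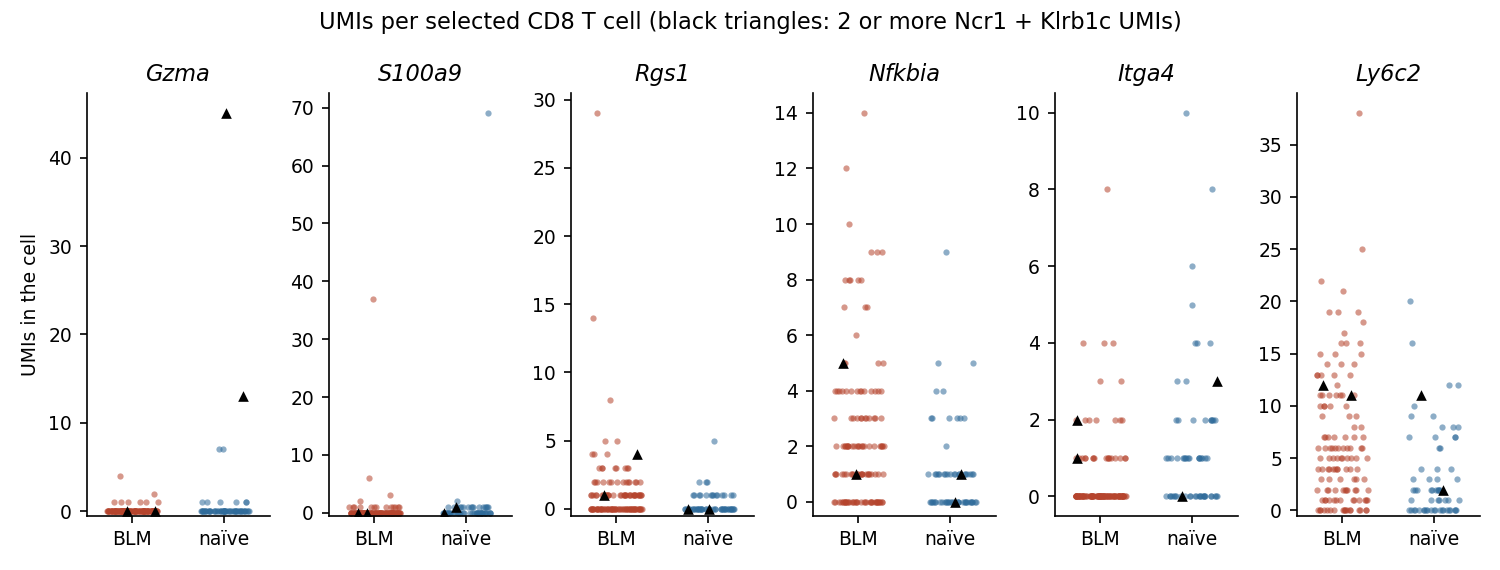
UMIs per cell (y axes, linear) of 6 genes in the 130 BLM and 63 naïve Ccl5/Nkg7 CD8 T cells, with random horizontal shifts. Black triangles are the 2 cells of each library with 2 or more UMIs of Ncr1 and Klrb1c. Gzma and S100a9 rested on 1 or a few cells (highest naïve cells 45 and 69 UMIs), whereas Nfkbia, Itga4 and Ly6c2 were spread over many.

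Of the transcription factors of effector and memory fate, 20 of 26 were measured well enough. Runx2 and Bhlhe40 were called higher in BLM, Eomes, Irf8, Nr4a2 and Rora lower, and the list median was −0.42. Eomes, a factor of memory CD8 and NK cells, had 23 UMIs in 19 BLM cells and 26 in 10 naïve cells, a log2 ratio of −1.28 [−2.16, −0.42], and it stayed at −1.29 without the cells with NK transcripts but was −0.87 and not called at a limit of 1 Ccl5 or Nkg7 UMI. Irf8 lost its call there, at −0.31 [−2.04, 1.62]. Nr4a2, an immediate target of T cell receptor signals, had 109 CPM in BLM and 277 CPM in naïve, a ratio of −1.35 [−1.93, −0.78], while its relative Nr4a1 had 353 and 339 CPM. Nr4a2 was at −0.84 and not called at the limit of 1 UMI, and at 0.25 in the other CD8 T cells. Rora was at −1.32 [−2.05, −0.59] here, −0.90 and not called at 10% mitochondrial UMIs, and 0.80 in the other CD8 T cells. Runx2, a partner of core binding factor, had 122 CPM in BLM (55 UMIs) and 43.0 CPM in naïve (9 UMIs), a ratio of 1.51 [0.48, 2.71], which was 1.11 [−0.05, 2.49] among the cells with a Ccl5 UMI. Bhlhe40 lost its call at limits of 1 and 3 UMIs, at 0.76 and 0.59. Tbx21, encoding T-bet, had 18 and 13 UMIs and was not called, and Tcf7 and Lef1 were at −0.46 [−0.84, −0.06] and −0.38 [−0.79, 0.04].

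Of the residency and retention genes only 5 of 10 were measured well enough, of which Rgs1 and Cd69 were called higher in BLM and none lower, with a list median of 0.87. Rgs1, a brake on chemokine receptor signalling, on chromosome 1 (144242296 to 144249242, minus strand), had 165 UMIs in 67 BLM cells and 25 in 18 naïve cells, or 366 against 119 CPM. The ratio was 3.07-fold, on the log2 scale 1.62 [1.0, 2.29], and the highest cells had 29 and 5 UMIs. The BLM cell with 29 Rgs1 UMIs was also the cell with 6 UMIs of the gamma delta gene Trdc. Cd69, whose protein draws S1P receptor 1 off the surface, had 99 and 18 UMIs, a log2 ratio of 1.35 [0.62, 2.17]. Cells with an Rgs1 UMI were 51.5% of BLM (42.6 to 60.4%) and 28.6% of naïve (17.9 to 41.3%) and, thinned to 1000 UMIs, 24.3% and 10.6%, beside 5.59% and 2.78% of B cells. Higher Rgs1 and Cd69 in BLM was not particular to these cells, since the other CD8 T cells had log2 ratios of 1.46 and 1.81, and NK cells 0.77 and 0.97. Both genes were seen in 24 BLM cells and 2 naïve cells. Of the BLM cells with a Cd69 UMI 53.3% also had one of S1pr1, and of those without it 60%. In naïve, where 11 cells had a Cd69 UMI, these shares went the other way, at 90.9% and 76.9%. Itgae and Itga1 had too few UMIs to compare, and Cxcr6 (17 and 12 UMIs) was at −0.60 [−1.76, 0.59].

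Of the genes of egress and lymph node homing, 6 were tested and none was called in either direction, with a list median of −0.45. S1pr1 was at −0.50 [−0.85, −0.15], S1pr4 at −0.93 [−1.44, −0.42], Klf3 at −0.62 [−1.06, −0.17], Ccr7 at −0.26 [−0.56, 0.06] and Klf2 at −0.22 [−0.51, 0.07]. In the other CD8 T cells the values of S1pr1, S1pr4 and Klf2 were 0.21, 0.46 and 0.45. The pooled value of Ccr7 mixed bins that differed, at 563 CPM in BLM and 928 CPM in naïve for 3 to 9 Ccl5 and Nkg7 UMIs and at 507 and 163 CPM for 10 or more.

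The integrin chain Itga4, which pairs with Itgb1 as VLA-4 and with Itgb7 in homing to inflamed and mucosal vessels, stood out among the surface genes. On chromosome 2 (79255426 to 79333123, plus strand), it had 60 UMIs in 32 of 130 BLM cells and 85 UMIs in 36 of 63 naïve cells, or 133 against 406 CPM. The log2 ratio was −1.61 [−2.11, −1.12], a 3.05-fold lower level, and the highest cells had 8 and 10 UMIs. It was −1.84 [−2.42, −1.26] among the cells with a Ccl5 UMI, and −0.70 in the other CD8 T cells, −0.49 in NK cells and −0.33 in B cells. Its partner chains were not called, with Itgb1 at 0.20 [−0.19, 0.60] and Itgb7 at −0.09 [−0.62, 0.46]. For Itgb1 the summed levels of the bins went opposite ways. They were 392 CPM in BLM and 133 CPM in naïve for 3 to 9 Ccl5 and Nkg7 UMIs and 536 and 991 CPM for 10 or more. The naïve levels rested on few cells. In the lower bin 9 UMIs lay in 4 cells, and in the upper bin the highest cells had 14, 12 and 10 of 61 UMIs. Cells with an Itgb1 UMI were 60.3% of BLM and 20% of naïve in the lower bin and 68.6% and 77.8% in the upper bin. Itga4 was lower in BLM in both bins, at 63.7 against 221 CPM and 197 against 585 CPM. Cells with an Itga4 UMI were 24.6% (17.5 to 32.9%) of BLM and 57.1% (44.0 to 69.5%) of naïve, and 11.5% and 28.3% after thinning. The share in B cells, which use this integrin as well, was 41.8% and 56.8%.

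In the list of memory and activation surface proteins, 21 of 29 genes were tested, with Ly6a called higher in BLM, Cd27, Spn and Itga4 lower and a median of −0.11. Ly6a (Sca-1), an interferon-responsive memory marker, had 74 and 10 UMIs, a log2 ratio of 1.78 [0.82, 2.90], beside 2.16 in the other CD8 T cells. Ly6c2, on chromosome 15 (75108158 to 75111970, minus strand), had 865 UMIs in 112 BLM cells and 216 in 42 naïve cells. At 0.90 [0.68, 1.12] it was under the 2-fold limit by total UMIs and over it, at 1.06, with TMM factors. The same ratio among the Ccl5-positive cells was 0.46 [0.22, 0.71] and in the other CD8 T cells 1.43. Cells with a Ly6c2 UMI were 86.2% of BLM and 66.7% of naïve, and 69.1% and 46.6% after thinning, beside 1.81% and 5.08% of B cells. Il2rb and Il7r, the receptors for interleukin-15 and interleukin-7, were at −0.05 [−0.29, 0.21] and −0.14 [−0.40, 0.12]. Cd27, a costimulatory receptor, and Spn (CD43) were at −1.07 and −1.11, and both calls were lost with TMM factors.

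Of 12 chemokine receptors 7 were tested, with a median of 0.28. Cxcr3, a receptor of effector and memory cells, had 19 and 11 UMIs. Among NK receptors 6 of 18 genes were tested (median −0.11), with Klra7 called higher in BLM at 1.37 [0.33, 2.58]. Its 9 naïve UMIs came from 2 cells, and at a limit of 3 Ccl5 and Nkg7 UMIs it was 0.82 and not called. Ly6c2, Klra7, Klrc1, Ctla2a, the Serpinb genes and the class I genes have close relatives in the genome, so reads may have been split between copies. Of 11 inhibitory receptors, 5 were tested (median −0.04), and Vsir (VISTA) was called lower at −1.18 [−1.86, −0.50], but not among the cells with a Ccl5 UMI, at −0.39. The exhaustion receptors Pdcd1 and Lag3 had 7 and 5, and 0 and 2, UMIs.

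Immediate early and stress genes were tested for 23 of 26, with a median of 0.06 and Nfkbia as the called gene. Nfkbia encodes the inhibitor of NF-kappa B that NF-kappa B itself induces and lies on chromosome 12 (55489410 to 55492647, minus strand). It had 317 UMIs in 93 BLM cells, from 0 to 14 per cell, and 67 UMIs in 32 naïve cells, from 0 to 9. This was 704 against 320 CPM, a log2 ratio of 1.14 [0.75, 1.54], beside 1.24 in the other CD8 T cells, 0.77 in NK cells and 0.31 in B cells. At a limit of 3 Ccl5 and Nkg7 UMIs the ratio of Nfkbia was 0.93, under the 2-fold limit. Tnfaip3, another NF-kappa B target, differed little, at 0.10 [−0.13, 0.34]. Zfp36 was at 0.83 [0.38, 1.30] and Btg1 at 0.65 [0.44, 0.87]. Socs3, the feedback inhibitor of cytokine signals through STAT3, on chromosome 11 (117966079 to 117970047, minus strand), had 85 UMIs in 56 BLM cells and 11 in 9 naïve cells. The log2 ratio was 1.84 [0.93, 2.90], beside 2.09 in the other CD8 T cells. UMIs of Nfkbia and Socs3 fell together in 40 BLM and 6 naïve cells.

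The Nfkbia promoter is printed because the gene was called higher in BLM in both CD8 classes and NF-kappa B is known to act on it. Shown are the 250 bases before the RefSeq start (GRCm38.p6, chr12:55492648-55492897, minus strand, 5′ to 3′). Capitals mark the kappa B match, searched on both strands as 3 G, any 2 bases, 3 T and 2 C, and found once, on the opposite strand, with 19 bases between its end and the start.
Nfkbia: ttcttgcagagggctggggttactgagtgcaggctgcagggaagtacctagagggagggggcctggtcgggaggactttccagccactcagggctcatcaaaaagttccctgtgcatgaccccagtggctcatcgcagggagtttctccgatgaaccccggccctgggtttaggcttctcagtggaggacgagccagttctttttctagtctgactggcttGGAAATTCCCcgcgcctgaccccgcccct
Of all 27025 promoter windows 1.65% held this motif, and of the 3633 windows of tested genes 1.68%. It was found in 3 of 84 windows of genes called higher (3.57%) and in 1 of 154 of genes called lower (0.649%), numbers too small to compare. A match describes letters and not binding.

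Of the ranked genes higher in BLM, Gpx4, which removes lipid peroxides, had 88 UMIs in 52 BLM cells and 10 in 10 naïve cells, a log2 ratio of 2.03 [1.08, 3.14], beside 0.49 in the other CD8 T cells. Prdx2, a peroxiredoxin, had 57 and 6 UMIs, a ratio of 2.14 [0.93, 3.65], beside −0.23 in the other CD8 T cells, and 0.76 and not called at a limit of 1 Ccl5 or Nkg7 UMI. Whether these ratios differ between the classes was not tested. Ctla2a had 141 and 24 UMIs, at 1.45 [0.82, 2.14], and 0.73 [0.09, 1.43] and not called among the cells with a Ccl5 UMI. Nrarp, a Notch target, and the iron transporter Slc11a2 each had 24 UMIs in BLM and 1 in naïve, a log2 ratio of 3.48 [0.86, 8.84]. At a limit of 1 Ccl5 or Nkg7 UMI Slc11a2 was 0.83 [−0.27, 2.05] and not called. The efflux pump Abcb1a had 24 UMIs in 21 BLM cells and 0 in naïve, at least 3.72-fold higher where 0 is read as 3 counts per library.

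Of 22 glycolysis and hypoxia genes, 15 were tested. Pfkl and Pfkp, both phosphofructokinases, were called higher, with 20 against 2 and 25 against 4 UMIs, and the median was 0.20. Pfkp was 0.25 at a limit of 1 Ccl5 or Nkg7 UMI and Pfkl 1.69 [−0.42, 4.86] at 10% mitochondrial UMIs, neither called. Ldha was at 0.97 [0.42, 1.55] and Pgk1 at 0.85 [0.24, 1.51], both called with TMM factors, while Gapdh was at 0.38 and Aldoa at 0.06. Tuba1b was the called gene of 11 tested cell cycle genes (1.02 [0.05, 2.11], median −0.11). It lost its call under 8 of the alternatives. Among MHC class I presentation genes, all 15 were tested, and the immunoproteasome subunit Psmb10 was called higher at 1.17 [0.33, 2.12], and 0.88 and not called at a limit of 1 UMI. The list median was −0.17, with H2-D1 at −0.53 [−0.67, −0.38] and H2-K1 at −0.42 [−0.58, −0.27].

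Interferon response genes were tested for 18 of 30, with Irf7 and Gbp2 called lower, none higher and a median of −0.40, and Irf7 lost its call with TMM factors and both at a limit of 1 UMI, at −0.77 and −0.46. The list summed to 1831 CPM in BLM and 2356 CPM in naïve. Of the 493 naïve UMIs, 61 came from each of 2 cells, while the highest BLM cells had 32 and 29 UMIs. The T cell receptor and CD3 signalling list gave 0 called of 15 tested, with a median of −0.07, that of all genes tested, and ratios from −0.86 for Zap70 to 0.73 for Sh2d2a. None of 4 tested cytokine genes (of 16, median 0.54) or 5 tested TNF receptor family and costimulation genes (of 9, median 0.33) was called, with the costimulator Icos at −0.78 [−1.12, −0.43]. Of 25 S100, annexin, galectin and cytoskeleton genes Anxa1 (−1.64, not called at a limit of 3 UMIs) and Lgals3 (−1.31) were called lower and none higher (median −0.01), and Tmsb10 was at 0.91 [0.69, 1.14], called with TMM factors.

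Among the remaining genes lower in BLM were Cited2, a transcriptional regulator (25 against 43 UMIs, −1.89 [−2.66, −1.14]), Rgcc (14 against 33, −2.34), Dapl1, a gene of naïve CD8 T cells (15 against 24, −1.78), and Trib2 (31 against 45, −1.64). Ramp3, a receptor accessory protein, had 11 and 33 UMIs, of which 13 were in 1 naïve cell, and Lmo4 had 28 of its 54 naïve UMIs in 1 cell. Snapc1 (−2.55) and the predicted genes Gm14085 (−2.78) and Gm47015 (−2.35) were also among them and had fewer than 20 UMIs on either side.

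Transcripts of other cells were present in these CD8 T cells, and their part in the ratios above was not tested. The macrophage and monocyte list summed to 4262 CPM in BLM and 4406 CPM in naïve, Ly6c2 included. Of the 1920 BLM and 922 naïve UMIs behind these sums, Ly6c2 gave 865 and 216. A further 149 of the naïve UMIs were Lyz2 of 1 cell. The sums are thus not a measure of macrophage and monocyte RNA alone. Of its 14 tested genes Spp1 and Apoe were called higher and Chil3 and Cd68 lower. Spp1, made by macrophages of the injured lung, had 44 UMIs in 32 BLM cells and 0 in naïve, at least 6.81-fold higher. Its level in BLM B cells was 477 CPM, above the 97.7 CPM here, and its log2 ratio there was 3.25. Clec4n, a myeloid lectin, had 25 UMIs in 15 BLM cells and 0 in naïve. The neutrophil genes S100a8, S100a9 and Retnlg were called lower in BLM (3 of 4 tested), but 1 cell of each library held 37 of 61 and 69 of 88 S100a9 UMIs and 1 naïve cell 45 of 48 Retnlg UMIs, and without the top cells the ratio of Retnlg was 1.12.

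Igkc, the immunoglobulin kappa chain, was lower in BLM at −2.03 [−2.71, −1.38], as it was in the other CD8 T cells (−1.74), in Cd4 T cells (−2.87) and in NK cells (−2.19), and Ighm and H2-Ab1 were called lower with it (3 of 5 B cell genes tested). With TMM factors Chil3, Cd68, S100a8, Ighm and H2-Ab1 were no longer called. The 6 defining B cell markers summed to 93.2 and 234 CPM here and to 7142 and 7464 CPM in B cells. Of the NK list Eomes was called lower (1 of 3 tested), of the list of group 2 innate lymphoid and Cd4 helper cells none (of 2 tested), of the epithelial and stromal list Pecam1 lower (1 of 1), and no gene of the gamma delta and invariant list was tested. Sftpc, the main transcript of type II alveolar cells, was at 0 in both groups.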

How the data were processed

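Live CD45+ lung cells of BLM and naïve mice were captured and sequenced as 2 whole-transcriptome BD Rhapsody libraries, 1 per group. Per the file headers, the authors made the deposited tables with the BD Rhapsody WTA analysis pipeline (version 1.8, GRCm38, GENCODE vM19). Per the file headers, the authors deposited whole-number counts of UMIs per gene and cell, after the pipeline's correction of UMI errors and with no normalization. The tables held 4714 BLM cells (22490782 UMIs) and 4062 naïve cells (18019004 UMIs), and a gene listed in 1 table only was set to 0 in the other.

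A cell was kept when it had at least 200 genes detected and mitochondrial UMIs made up no more than 15% of its total. UMIs were summed over the cells of a class and given as CPM. Intervals were exact at 95% (Poisson for levels, Clopper-Pearson for shares, conditional for ratios). A gene was called at 20 or more UMIs over both sides, a 2-fold or larger ratio and an interval that left out 0. A count of 0 was read as 3 counts per library for a bound. Shares of cells were also computed after thinning to 1000 UMIs. NK cells had no CD3 UMI and 2 or more of Ncr1 and Klrb1c. Cd4 T cells had 2 or more CD3 UMIs, a Cd4 UMI and none of Cd8a, Cd8b1 or Foxp3. B cells had no CD3 UMI and 2 or more of Cd79a and Ms4a1.

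Genes named are those of 24 lists (371 genes), the 12 highest and 12 lowest by the interval end nearer 0 for BLM against naïve, and the 10 highest and 10 lowest against other CD8 T cells, for genes seen in 10% of cells of the higher side. Genes of the rule and markers of naïve CD8 T cells, among them Dapl1, were named with them. Some genes that meet this rule, and results that need them, are not reported here. The cells and lists were chosen with earlier results of these data known. Alternatives changed the cell filters, the limits of the rule, the doublet treatment, the scaling and the filter on low counts. Leaving out the top cell of each gene, cells with NK transcripts or cells with 10 or more UMIs of other cells, and keeping only cells with a Ccl5 UMI, were added after seeing the data. Doublets were kept, and Scrublet's highest 3% left out as an alternative. Python 3.11.15, numpy 2.4.6, scipy 1.17.1, pandas 2.3.3, scanpy 1.11.5 and edgeR 4.0.16 (TMM factors only) were used. The ratios and calls were tested on simulated sums of independent UMIs, which do not cover UMIs held together in 1 cell. Gene coordinates are those of GENCODE vM21 on GRCm38.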

Additional observations from a re-analysis of the deposited data

How the results depend on the processing

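No paired analysis was possible because each group was 1 library. Of the 56 called genes named for BLM against naïve, the number still called in the same direction was 41 at 10% mitochondrial UMIs, 56 at 500 genes, 33 and 36 at limits of 3 and 1 Ccl5 and Nkg7 UMIs, 41 at 2 Cd8a and Cd8b1 UMIs, 43 without high Scrublet scores, 41 without cells holding 10 UMIs of other cells, 31 among cells with a Ccl5 UMI, 51 without cells with NK transcripts, 48 with TMM factors, 54 with a reduced denominator, 48 with the mean of cells' CPM, 40 without the top cells and 34 at a filter of 50 UMIs. Leaving out every cell with 2 or more UMIs of 10 genes of other cells left 15 and 5 cells and none of 30 such genes called. The share of filtered cells was 0.968% in naïve at a limit of 3, 3.56% in BLM and 2.80% in naïve at a limit of 1, 2.23% in BLM at 2 Cd8a and Cd8b1 UMIs, 0.331% and 0.127% without cells holding 2 UMIs of other cells, and 0.892% in naïve with a Ccl5 UMI.

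Called genes for BLM against naïve numbered 12 higher and 16 lower without cells holding 2 UMIs of other cells, 175 and 113 with TMM factors, 54 and 55 at a filter of 50 UMIs, 337 lower with no filter and 113 lower without the top cells. Against other CD8 T cells they numbered 20 and 30 in BLM and 8 and 5 in naïve without cells holding 2 UMIs of other cells, 194 and 145 higher at a filter of 10, 55 and 38 and 22 and 35 at 50, and 203 and 229 and 187 and 175 with no filter. Thinned to 1500 UMIs, the shares were 59.3% and 67.4% for Nkg7, and in BLM 77.3% for Ly6c2, 45.3% for Ccr7, 39.5% for S1pr1 and 53.5% for Nfkbia. With 2 UMIs of a gene group the BLM shares were 3.08% for residency, 3.85% for terminal effector and 0% for Gzmk, and the naïve shares 6.35% for residency and 9.52% for terminal effector. Thinned to 1000 UMIs they were 5.67% and 4.69% in BLM, and 7.12% for residency in naïve.

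Log2 ratios of called genes that turned their direction for BLM against naïve were S100a8 1.61, S100a9 0.64 and Retnlg 2.44 at a limit of 3, Retnlg 1.19 without high Scrublet scores, 1.65 without cells holding 10 UMIs of other cells and 1.12 without the top cells, and S100a8 1.35, S100a9 0.91 and Retnlg 1.03 among cells with a Ccl5 UMI. Without cells holding 2 UMIs of other cells they were Runx2 −0.12, Bhlhe40 −0.70, Ly6a −0.70, Spn 0.62, Chil3 0.034, Lmo4 1.10 and Aff1 −1.70. Against other CD8 T cells of BLM they were Gzmb 1.20 without high Scrublet scores, and Bhlhe40 −0.88, Retnlg 0.12 and Itga6 0.12 without cells holding 2 UMIs of other cells. Against other CD8 T cells of naïve they were S100a8 −1.69, S100a9 −1.10 and Retnlg −3.93 at a limit of 3, Hilpda 1.26 and Ccl6 1.83 at a limit of 1, Ccl6 0.31 without high Scrublet scores, Hilpda 0.33 and H2-Ab1 0.92 without cells holding 2 UMIs of other cells, and Retnlg −0.17, H2-Aa 0.18 and Thbs1 −0.062 without cells holding 10 such UMIs. Apart from the smaller numbers of cells or genes that some alternatives leave, the cause was not tested.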
